A study of Mus musculus with 16 samples.

Results

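The genes of the constitutive proteasome, the protein complex that degrades ubiquitin-tagged proteins in every cell, were compared between brown adipose tissue (BAT) and subcutaneous white adipose tissue (sWAT) of LACA mice. Members were all genes named Psma, Psmb, Psmc, Psmd, Psme, Psmf or Psmg with a number, taken from array probe sets assigned to 1 gene symbol, without the immunoproteasome genes Psmb8, Psmb9 and Psmb10. The rule found 96 of the 45101 probe sets, which stood for 44 of the 18194 genes with such a probe set. Psme2 was the 1 listed subunit with no probe set of its own, since its probe set carried a second symbol.

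The core of the proteasome is a barrel of stacked rings, in which outer alpha rings form a gate and inner beta rings carry the protein-cutting sites. A regulatory cap sits on the barrel: its base of ATPases unfolds the substrate, and its lid removes the ubiquitin chain. In brown fat the transcription factor Nfe2l1 is known to raise proteasome gene expression under thermogenic demand, and in cells exposed to interferon the catalytic subunits are exchanged for immunoproteasome forms.

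RNA of untreated male mice of 25 ± 3 g, whose age the labels do not give, was measured on 16 Affymetrix whole-genome mouse arrays. Each tissue had 4 numbered replicates with 2 arrays each, 1 labelled biological and 1 technical, and the 2 arrays of a replicate were averaged. The methods describe 4 mice. Both tissues were bulk samples, in which fewer cells of a type and less RNA per cell cannot be told apart. The deposited log2 values are centred per probe set, so that 0 is the probe set's median over the arrays, a difference of 1 is 2-fold, and levels of different genes cannot be compared.

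Several samples stood apart, and this touches every result on the proteasome genes. On array 1 of sWAT replicate 3 and array 2 of BAT replicate 1, the control probe sets for the 5′ ends of Gapdh and Actb differed from those for the 3′ ends by -4.79 and -3.56 on the log2 scale, while on the other 14 arrays this difference lay between -1.23 and 0.46. The mean of the 96 member probe sets was -0.56 and -0.34 on these 2 arrays and -0.12 to 0.22 on the others. Counts, members called and values that turn on these arrays are therefore also given from the other 14 arrays, called the 14-array values. Sex-linked genes went against the label male in BAT replicates 1 to 3, where Xist, the RNA of the inactive X chromosome, read 5.74 to 6.36 and the mean of 3 Y-linked genes read -2.33 to -1.98. In BAT replicate 4 these values were -0.26 and 0.18, and in the sWAT replicates they were -0.27 to -0.11 and 0.20 to 0.39. Tissue and sex cannot be told apart for BAT replicates 1 to 3, so BAT replicate 4 alone is given beside the main counts. BAT replicate 4 also differed from the other BAT replicates in its cell type markers, given below.

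**Figure D1:**
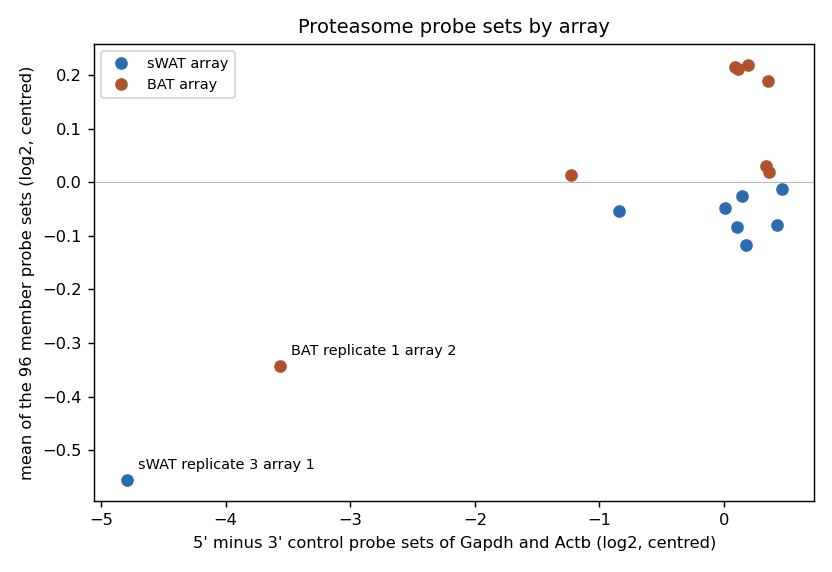
Mean centred log2 value of the 96 member probe sets (vertical axis) against the 5′ minus 3′ difference of the Gapdh and Actb control probe sets (horizontal axis, log2) for each of the 16 arrays. The 2 labelled arrays, at -4.79 and -3.56, lie far below the rest on both axes, and without them all 7 BAT arrays lie above all 7 sWAT arrays. The median of all probe sets on an array (not drawn) parted the same arrays too. Its lowest BAT value was -0.0085 and its highest sWAT value -0.012.

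The markers of the 2 tissues and of other cell types moved strongly. All 9 brown adipocyte markers, Ucp1 among them, were highly expressed in BAT relative to sWAT, with a mean level of 1.57 to 3.28 in BAT replicates and -2.51 to -1.50 in sWAT replicates. All 8 skeletal muscle markers were higher in BAT, where their mean level was 2.14 to 4.19 against -1.91 to -1.54 in sWAT. All 6 B cell markers and all 6 T cell markers measured were lower in BAT, with mean levels of -2.65 to -1.84 and -2.22 to -1.32 in BAT against 2.19 to 3.01 and 1.66 to 2.36 in sWAT. All 5 cell division markers and 4 of 5 macrophage markers were lower in BAT too, while 2 of 5 adipocyte markers and 1 of 4 endothelial markers were higher. In the 14-array values all 5 macrophage markers were lower, 3 endothelial markers were higher and 1 was lower, and the counts of the other lists stayed as they were. BAT replicate 4 stood apart from BAT replicates 1 to 3 in some of these means, given here with all arrays. Its brown adipocyte mean was 1.57 against 3.18 to 3.28, and its muscle mean 4.19 against 2.14 to 3.34. Its macrophage mean was 0.26 against -1.77 to -0.81. The part of the other cell types in the proteasome results was not tested.

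The constitutive proteasome genes as a family differed little between the tissues. With all arrays the share of members called higher in BAT was near that of all genes, and the share called lower was below that of all genes. By limma with Benjamini-Hochberg adjustment over all genes, 10 of the 44 members (22.7%) were higher in BAT at an adjusted p under 0.05, against 21% of all genes, and 1 member (2.27%) was lower, against 17.5% of all genes. The median difference between BAT and sWAT was 0.16 over the members and 0.15 over all genes on the log2 scale. The difference was above 0 for 33 members (75%) and for 62.7% of all genes, and for 28 members when each array was shifted to a median of 0 or 43 when it was shifted to Gapdh and Actb. The median of the members lay 0.012 above that of all genes. A shift of whole arrays moves all genes by the same amount, so this gap cannot differ between the scalings. All BAT replicates lay above all sWAT replicates for 11 members, against 28% of all genes, and below them for 2 members, against 17.4%.

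Changes were small. Psmb7, at 2.22-fold, was the 1 member that passed the test with a difference of at least 2-fold, a size reached by 7.13% of all genes in that direction. The 95% interval of the difference lay wholly within a 2-fold change in either direction for 37 of the 44 members, and for 39 in the 14-array values. The members called higher were Psmb2, Psmb3, Psmb7 and Psmb11 of the beta rings, Psmc1 and Psmc6 of the base, Psmd12 of the lid, the activator Psme3, and the assembly chaperones Psmg1 and Psmg4. Psme1 was the member called lower.

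In the 14-array values 15 members were higher (28.7% of all genes) and 1 was lower (20.5% of all genes), and the median was 0.17 against 0.15 over all genes. The members that joined were Psmb5, Psmb6, Psmd1, Psmd3 and Psmd8, and no member called with all arrays dropped out. The adjusted p was 0.0076 for Psmb2, 0.012 for Psmb11, 0.014 for Psmc1, 0.036 for Psmc6, 0.0054 for Psme3 and 0.010 for Psmg4, by limma. All BAT replicates then lay above all sWAT replicates for 15 members, against 32.2% of all genes, and below them for 3, against 20%. When BAT replicate 4 alone was set against sWAT without the array of low 5′ signal, 6 members were higher (18.2% of all genes) and 0 were lower (13.6% of all genes), with 2 lower at an unadjusted p under 0.05 by limma, and 26 of the 44 differences were above 0 (59.1%, against 64.2% of all genes). The median of these differences was 0.087 over the members and 0.16 over all genes. That comparison takes the spread from the sWAT replicates alone. The 6 were Psmb2, Psmb3, Psmb6, Psmb7, Psmd8 and Psmg1.

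The numbered replicates did not weigh alike. Psmb7, Psmd12 and Psmg1 passed the test with each replicate number left out in turn. The other 8 called members each lost the call without at least 1 number, and the number of members called higher fell to 5, 3, 5 and 6 without replicates 1, 2, 3 and 4 (11.4%, 6.82%, 11.4% and 13.6%, against 15.1%, 12.9%, 20.3% and 15.4% of all genes in the same fits), while Psme1 was no longer called lower in any of them.

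**Figure D2:**
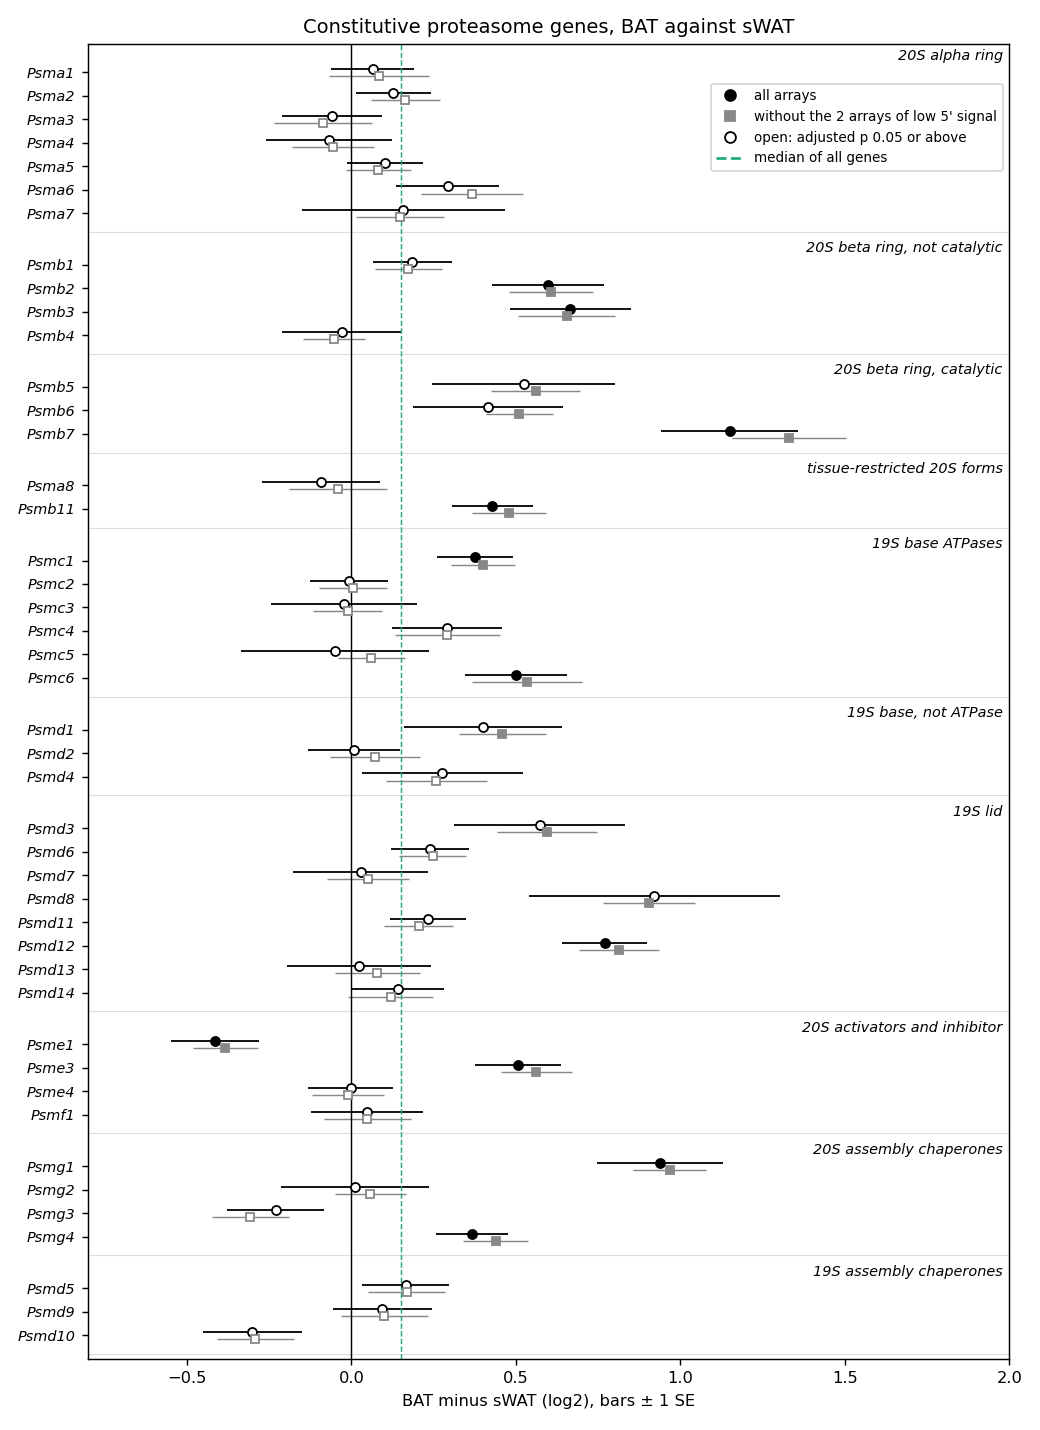
Difference between BAT and sWAT (horizontal axis, log2, bars ± 1 SE, 4 replicates per tissue) for the 44 member genes, grouped by subcomplex. Black circles are all arrays and grey squares leave out the 2 arrays of low 5′ signal, filled symbols have an adjusted p under 0.05, and the dashed line is the median of all genes at 0.15.

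No gene of the alpha ring, which gates the barrel, passed the test as the mean of its probe sets, though single probe sets of Psma6 did, as given below. Its 7 genes had 0 calls with all arrays, against 21% of all genes higher and 17.5% lower, and 0 in the 14-array values, also at an unadjusted p under 0.05 by limma or the methods' t-test. Their median difference was 0.10. Every interval lay within a 2-fold change, between -0.57 and 0.89 on the log2 scale. Psma6 had the largest difference of the ring. It read 0.042, -0.13, 0.12 and -0.028 in sWAT replicates 1 to 4 and 0.33, 0.58, 0.42 and -0.15 in BAT replicates 1 to 4. BAT replicates 1 to 3 were above all sWAT replicates and BAT replicate 4 was below them, and the difference of 0.29 ± 0.16 (SE, n = 4 replicates per tissue, as for every difference here) had an adjusted p of 0.17 by limma.

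Psma3, whose protein carries a long charged tail, had the smallest difference of the ring. It read 0.0011, 0.089, -0.18 and -0.0054 in sWAT and -0.022, 0.068, 0.12 and -0.50 in BAT. The tissues overlapped, and the difference of -0.059 ± 0.15 had an interval of -0.42 to 0.30.

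Of the 4 beta subunits without a cutting site, Psmb2 and Psmb3 were higher in BAT, and Psmb1 and Psmb4 did not pass the test. In the 14-array values 2 of the 3 probe sets of Psmb1 were higher, against 21.7% of all probe sets. Psmb3 read -0.28, -0.13, -1.02 and -0.058 in sWAT and 0.092, 0.42, 0.32 and 0.34 in BAT. All BAT replicates were above all sWAT replicates, with BAT replicate 1 the lowest of them. The difference was 0.66 ± 0.18, or 1.59-fold, with an adjusted p of 0.028 by limma, and it was 0.65 ± 0.15 (adjusted p = 0.010) in the 14-array values. Without replicate 2 its adjusted p was 0.073, the highest of the 4 fits that left out a number.

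Psmb2 read -0.30, -0.090, -0.72 and 0.00 in sWAT and 0.085, 0.37, 0.47 and 0.36 in BAT. The tissues did not overlap, and sWAT replicate 4 lay just under BAT replicate 1. Its difference was 0.60 ± 0.17, with an adjusted p of 0.030 by limma. It was as low as 0.40 with a replicate number left out, and it was called in 1 of those 4 fits.

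Psmb4 had the smallest difference of this group. It read 0.060, -0.092, -0.52 and 0.014 in sWAT and -0.53, -0.13, -0.030 and 0.027 in BAT. Its difference was -0.030 ± 0.18, with an interval of -0.46 to 0.40 that narrowed to -0.28 to 0.17 in the 14-array values.

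The 3 catalytic subunits were all at higher mean levels in BAT, but with all arrays the test was passed by Psmb7 alone. Psmb7, which carries the trypsin-like site, read -0.071, -0.12, -0.72 and -0.19 in sWAT and 0.64, 0.91, 1.21 and 0.73 in BAT. Every BAT replicate was at least 0.64 and every sWAT replicate was below 0. The difference was 1.15 ± 0.21, with an adjusted p of 0.0050 by limma, and it was 1.33 ± 0.17, or 2.51-fold (adjusted p = 0.00095), in the 14-array values. BAT replicate 4 alone stood 1.0 ± 0.24 above sWAT.

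Psmb5, which carries the chymotrypsin-like site, read -0.017, -0.084, -0.92 and -0.068 in sWAT and -0.21, 0.23, 0.71 and 0.28 in BAT. BAT replicate 1 lay among the sWAT replicates and sWAT replicate 3 far below them, and these are the replicates that hold the arrays of low 5′ signal. The difference was 0.52 ± 0.28 (adjusted p = 0.17 by limma). In the 14-array values BAT replicate 1 read 0.62 and sWAT replicate 3 read -0.23, the tissues no longer overlapped, and the difference was 0.56 ± 0.13 (adjusted p = 0.013).

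Psmb6, which carries the caspase-like site, read -0.081, -0.20, -0.77 and 0.00 in sWAT and -0.41, 0.18, 0.39 and 0.44 in BAT. BAT replicate 1 made the tissues overlap, sWAT replicate 3 was again the lowest, and the difference was 0.42 ± 0.23 (adjusted p = 0.18 by limma). It was 0.51 ± 0.10 (adjusted p = 0.0060) in the 14-array values, with BAT replicate 1 at 0.55 and sWAT replicate 3 at -0.20.

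The immunoproteasome partners of these subunits went the other way. Psmb8 read 0.29, 0.044, 0.0079 and 0.48 in sWAT and -1.49, -0.83, -0.29 and 0.065 in BAT. BAT replicate 4 lay among the sWAT replicates and the other BAT replicates below them, and Psmb8 fell by 0.84 ± 0.25 in BAT (adjusted p = 0.033 by limma). Psmb9 and Psmb10 differed by -0.67 ± 0.27 (adjusted p = 0.084) and -0.70 ± 0.32 (adjusted p = 0.13). All 3 were lower in BAT in the 14-array values, with adjusted p-values of 0.0031, 0.0057 and 0.022 in the same order.

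The balance between each catalytic subunit and its immunoproteasome partner was taken as the difference of their log2 values within a sample. The deposited values are centred, so this gives a shift of the balance between the tissues and not which form is more abundant. For Psmb5 minus Psmb8 it was -0.31, -0.13, -0.93 and -0.55 in sWAT and 1.28, 1.05, 1.0 and 0.21 in BAT. For Psmb6 minus Psmb9 it was -0.26, -0.45, -0.40 and -0.59 in sWAT and 0.75, 1.06, 0.45 and 0.41 in BAT. For Psmb7 minus Psmb10 it was -0.30, -0.12, -0.43 and -0.67 in sWAT and 2.34, 1.84, 1.44 and 0.26 in BAT.

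In all 3 pairs every BAT replicate was positive and every sWAT replicate negative, and BAT replicate 4 was the lowest of the BAT replicates. The shift was 1.37 for Psmb5 and Psmb8, 1.09 for Psmb6 and Psmb9, and 1.85 for Psmb7 and Psmb10, with SDs over the differences of same-numbered replicates of 0.50, 0.29 and 0.70. Each had a two-sided exact permutation p of 0.0286, which is the smallest that 4 against 4 replicates allow, and the same value after adjustment over the 3 pairs. The 14-array shifts were 1.38, 1.20 and 1.95, with the same p. With the replicate numbers taken as pairs, the exact sign-flip test gave 0.125, the smallest that 4 pairs allow. Immunoproteasome genes are known to be high in lymphocytes, whose markers stood far higher in sWAT. The mean of the 6 B cell markers was 2.19 to 3.01 in sWAT and -2.65 to -1.84 in BAT, where replicate 4 was lowest. Among the BAT replicates, Psmb8, Psmb9 and Psmb10 were highest in replicate 4, at 0.065, 0.036 and 0.47. So were the T cell mean, at -1.32, and the macrophage mean, at 0.26 against -1.77 to -0.81 in replicates 1 to 3. The part of these cells in the shift was not tested.

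**Figure D3:**
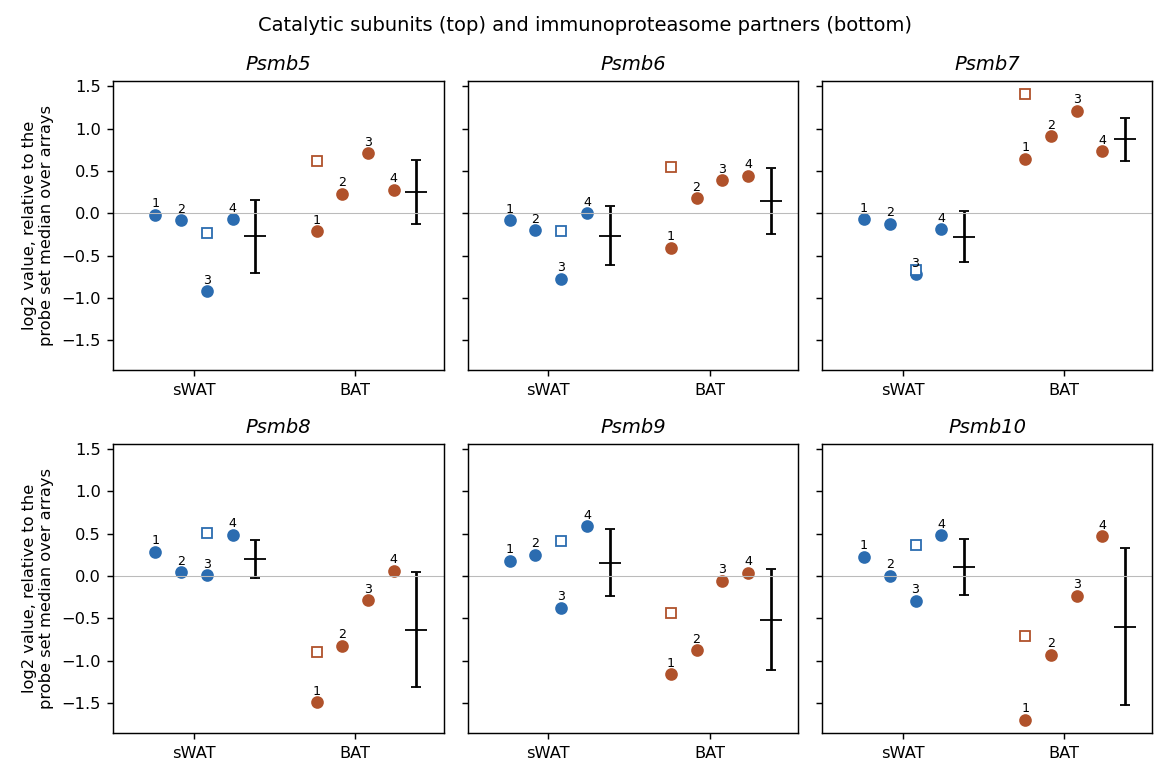
Centred log2 values (vertical axis) of Psmb5, Psmb6 and Psmb7 (top) and their partners Psmb8, Psmb9 and Psmb10 (bottom) in sWAT (blue) and BAT (brown), with the replicate number over each point and the mean ± SD (n = 4) at the right. Open squares show sWAT replicate 3 and BAT replicate 1 without their array of low 5′ signal. In BAT the top genes lie above 0 except Psmb5 and Psmb6 in replicate 1, and the bottom genes lie below 0 in replicates 1 to 3 and above it in replicate 4.

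Both tissue-restricted core subunits were on the array. Psmb11, known as the thymus-specific catalytic subunit, read -0.081, -0.21, -0.46 and -0.089 in sWAT and 0.28, 0.29, 0.18 and 0.12 in BAT. The tissues did not overlap, and the difference was 0.43 ± 0.12 (adjusted p = 0.032 by limma), a call that was lost without any 1 of the 4 replicate numbers (adjusted p up to 0.14). Centred values do not show whether this transcript was above background in fat. Psma8, known as the testis form, read -0.41, 0.22, 0.32 and 0.061 in sWAT and 0.13, -0.18, -0.037 and -0.090 in BAT. Its values were mixed between the tissues, with a difference of -0.092 ± 0.18.

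In the cap, 3 of 17 genes were higher in BAT with all arrays (17.6%, against 21% of all genes) and 6 of 17 in the 14-array values (35.3%, against 28.7%). Among the 6 ATPases of the base, Psmc1 and Psmc6 were called. Psmc6 read -0.11, -0.17, 0.020 and -0.67 in sWAT and 0.34, 0.17, 0.25 and 0.31 in BAT. All BAT replicates lay above all sWAT replicates, and sWAT replicate 4 was the lowest. Psmc6 differed by 0.50 ± 0.15 (adjusted p = 0.041 by limma), and the call was lost without replicate 1, 2 or 4, with the smallest difference, 0.34 (adjusted p = 0.14), without replicate 4.

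Psmc1 read -0.078, -0.13, -0.28 and -0.15 in sWAT and 0.20, 0.23, 0.28 and 0.16 in BAT, and differed by 0.38 ± 0.12 (adjusted p = 0.041 by limma). The groups did not overlap and were narrow, but the call was lost without any 1 of the replicate numbers (adjusted p up to 0.15). Psmc2, the ATPase with the smallest difference, read -0.0058, 0.020, -0.21 and 0.033 in sWAT and 0.0055, -0.088, -0.021 and -0.087 in BAT. The tissues overlapped, and the interval of the difference was -0.29 to 0.27. Psmc3, Psmc4 and Psmc5 did not pass the test either, with differences of -0.022, 0.29 and -0.049.

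The 3 base subunits that are not ATPases hold the scaffold and receptors that bind ubiquitin chains. Psmd1, a large scaffold subunit, read 0.044, -0.17, -0.73 and -0.046 in sWAT and -0.21, 0.34, 0.53 and 0.038 in BAT, and differed by 0.40 ± 0.24 (adjusted p = 0.22 by limma). BAT replicate 1 lay below 3 of the sWAT replicates with all arrays, but read 0.51 without its array of low 5′ signal, and the 14-array difference was 0.46 ± 0.13 (adjusted p = 0.026). Psmd2, the other scaffold subunit, read -0.25, 0.012, -0.36 and -0.0063 in sWAT and -0.37, -0.17, 0.049 and -0.078 in BAT. Its tissues overlapped, with an interval of -0.32 to 0.34. The ubiquitin receptor Psmd4 differed by 0.28 ± 0.24 and did not pass the test.

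All 8 lid genes had a difference above 0, as had 62.7% of all genes, and their median was 0.24, against 0.15 over all genes. With BAT replicate 4 alone against sWAT without the array of low 5′ signal, Psmd7, Psmd13 and Psmd14 differed by -0.20, -0.092 and -0.24. The other lid genes stayed above 0 there. With all arrays Psmd12 alone passed the test, 12.5% of the lid genes against 21% of all genes. Psmd12, a structural subunit of the lid, read -0.24, -0.40, -0.28 and -0.47 in sWAT and 0.62, 0.58, 0.47 and 0.022 in BAT. The tissues did not overlap, and BAT replicate 4 stood well below the other BAT replicates. The difference was 0.77 ± 0.13, or 1.71-fold (adjusted p = 0.0036 by limma), and 0.81 ± 0.12 (adjusted p = 0.0018) in the 14-array values. BAT replicate 4 alone differed from sWAT by 0.43 ± 0.15 (adjusted p = 0.066).

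Psmd8, the lid gene with the largest difference, read -0.024, -0.024, -1.54 and -0.19 in sWAT and -0.16, 0.52, 0.95 and 0.60 in BAT. The low sWAT replicate 3 and BAT replicate 1 again hold the arrays of low 5′ signal. The difference was 0.92 ± 0.38 (adjusted p = 0.097 by limma), and in the 14-array values it was 0.90 ± 0.14 (adjusted p = 0.0020). Psmd3 differed by 0.57 ± 0.26 (adjusted p = 0.12) with all arrays and by 0.59 ± 0.15 (adjusted p = 0.017) in the 14-array values.

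Psmd13 had the smallest difference of the lid. It read 0.030, 0.020, -0.60 and 0.14 in sWAT and -0.47, -0.083, 0.25 and -0.013 in BAT, and the tissues overlapped. Its interval was -0.50 to 0.54. Psmd14, the subunit that cuts off the ubiquitin chain, differed by 0.14 ± 0.14 and did not pass the test.

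The activators, which can cap the barrel in place of the regulatory cap, held 1 member that was higher in BAT and the 1 member that was lower. Psme1, an interferon-induced activator subunit, read 0.35, 0.00, 0.16 and 0.42 in sWAT and -0.40, -0.26, -0.070 and -0.010 in BAT. Every BAT replicate was below every sWAT replicate, and sWAT replicate 2 and BAT replicate 4 nearly met. The difference was -0.42 ± 0.13 (adjusted p = 0.046 by limma) and -0.38 ± 0.10 (adjusted p = 0.018) in the 14-array values. The call was lost without any 1 of the replicate numbers (adjusted p up to 0.13).

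Psme3, the nuclear activator, read -0.10, -0.32, -0.46 and -0.21 in sWAT and 0.21, 0.30, 0.31 and 0.11 in BAT. The tissues did not overlap, and the difference was 0.51 ± 0.13, or 1.42-fold (adjusted p = 0.022 by limma). Its 3 probe sets differed by 0.018 to 0.93, and 2 of them passed the test as higher, against 15.1% of all probe sets. As a gene Psme3 was called in 2 of the 4 fits that left out a replicate number, with adjusted p-values up to 0.11 where replicate 2 or 3 was left out. Psme4, a large activator of the nucleus, read 0.029, 0.14, -0.13 and 0.024 in sWAT and -0.015, -0.0062, 0.19 and -0.11 in BAT. Its difference was -0.0023 ± 0.13, with an interval of -0.31 to 0.30. Psmf1, an inhibitor of the barrel, differed by 0.047 ± 0.17.

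Among the chaperones that assemble the barrel, Psmg1 and Psmg4 were higher in BAT than in sWAT. Psmg1 read -0.022, -0.071, -0.47 and -0.022 in sWAT and 0.43, 0.68, 1.11 and 0.93 in BAT. The tissues were clearly apart, and sWAT replicate 3 was the lowest. The difference was 0.94 ± 0.19, or 1.92-fold (adjusted p = 0.0084 by limma), and 0.97 ± 0.11 (adjusted p = 0.00055) in the 14-array values. BAT replicate 4 alone stood 0.98 ± 0.11 above sWAT (adjusted p = 0.0018).

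Psmg2, the protein partner of Psmg1 in building the alpha ring, read 0.23, -0.092, -0.64 and 0.11 in sWAT and -0.52, -0.13, 0.075 and 0.21 in BAT. Its tissues overlapped, and the interval of its difference was -0.52 to 0.54 with all arrays and -0.19 to 0.31 in the 14-array values, below the whole 14-array interval of Psmg1, 0.70 to 1.23. Psmg4 differed by 0.37 ± 0.11 (adjusted p = 0.037 by limma), a call lost without any 1 of the replicate numbers (adjusted p up to 0.17), and its partner Psmg3 by -0.23 ± 0.15 (adjusted p = 0.24).

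None of the 3 chaperones of the cap passed the test with the replicate block. With all arrays 0 of them had an unadjusted p under 0.05 by limma or the methods' t-test. In the 14-array values 1 was lower at an unadjusted p under 0.05 by limma. Psmd10, also known as gankyrin, had the largest difference. It read 0.42, 0.12, 0.018 and 0.085 in sWAT and -0.32, -0.20, -0.0094 and -0.029 in BAT. Every BAT replicate was below every sWAT replicate, but the difference of -0.30 ± 0.15 had an adjusted p of 0.15 by limma, and of 0.077 in the 14-array values. In the 14-array fit without the block, added after seeing the data, its adjusted p was 0.034 by limma. Psmd9 read 0.0036, -0.22, -0.091 and 0.040 in sWAT and -0.087, 0.24, 0.14 and -0.20 in BAT, and differed by 0.094 ± 0.15. Its tissues overlapped, with BAT replicates 2 and 3 above all sWAT replicates and BAT replicate 1 among them.

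Probe sets of 1 gene did not always move together, and the gene values above are their means. Among the 96 member probe sets, 11 were higher in BAT (11.5%, against 15.1% of all probe sets) and 6 were lower (6.25%, against 17.3%). Of the 14-array differences, 33 were higher (34.4%, against 21.7%) and 5 were lower (5.21%, against 20.7%). Of the 25 members with 2 or more probe sets, 14 had probe sets on both sides of 0, and in Psma6 probe sets passed the test in both directions.

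Of the 4 probe sets of Psma6, 1416506_at read -0.092, -0.24, -0.21 and -0.15 in sWAT and 0.59, 0.80, 0.67 and 0.091 in BAT. The second, 1435316_at, read 0.66, 0.15, 0.52 and 0.34 in sWAT and -0.85, 0.00, 0.016 and -0.60 in BAT. Neither had overlapping tissues, and they ran in opposite directions, by 0.71 ± 0.17 (adjusted p = 0.017 by limma over all probe sets) and -0.77 ± 0.23 (adjusted p = 0.038). The second was no longer past the test in the 14-array values (adjusted p = 0.091), where 3 of the 4 probe sets were higher. Another probe set of Psma6, 1437144_x_at, was higher by 0.81 ± 0.22 (adjusted p = 0.028).

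Differences that cancelled within a gene were widest in Psme4, where 6 probe sets ran from -0.83 to 0.79. In the 14-array values Psme4, Psmd7 and Psmd9 each had probe sets past the test in both directions. For Psmd9, 1423386_at was higher by 0.74 ± 0.18 (adjusted p = 0.014) and 1447670_at lower by 0.67 ± 0.13 (adjusted p = 0.0061). For Psmd13, 1445729_at was higher by 1.04 ± 0.25 with all arrays (adjusted p = 0.018) while the other 3 probe sets were at -0.39 to -0.19. The sequences of these probe sets were not analysed here, so which transcripts each one reads is not given.

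**Figure D4:**
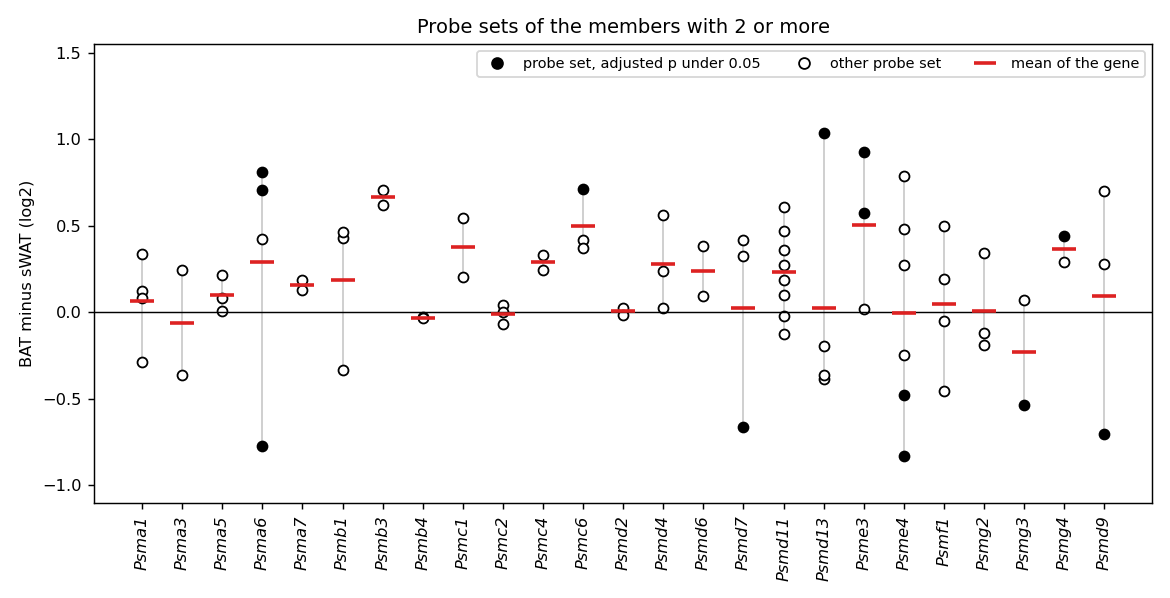
Difference between BAT and sWAT (vertical axis, log2, all arrays) for every probe set of the 25 members that have 2 or more, with filled points for an adjusted p under 0.05 and a red bar at the gene mean. Psma6 holds filled points on both sides of 0, and Psme4 spans -0.83 to 0.79.

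The sequences before the start sites were searched for the core of the antioxidant response element, TGACNNNGC, which Nfe2l1 and Nfe2l2 are known to bind, on both strands. RefSeq windows of 300 bases (GRCm38.p6, 250 bases before to 50 after a start) were given for 36 of the 44 members. The match was found in 6 of these 36 genes (16.7%), Psmb5, Psmb6, Psmc6, Psmd12, Psme4 and Psmd9, and in 14% of the 27025 genes with a window. The pattern CCAAT, the core of the site of the Nfy factors, was in 13 of the 36 (36.1%) and in 41.1% of all. Members that were higher in BAT, with all arrays or in the 14-array values, and whose match lay upstream of the whole annotated gene are shown with 60 bases around it, 5′ to 3′ on the strand of the gene and with the match in capitals.
Psmb5: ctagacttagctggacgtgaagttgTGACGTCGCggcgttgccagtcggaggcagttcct
Psmc6: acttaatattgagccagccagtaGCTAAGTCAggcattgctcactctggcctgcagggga
Psmd12: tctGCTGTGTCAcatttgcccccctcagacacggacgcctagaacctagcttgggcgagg
They lie at chr14:54618008-54618067 on the minus strand for Psmb5, chr14:45329574-45329633 on the plus strand for Psmc6, and chr11:107479278-107479337 on the plus strand for Psmd12. The match began 47 bases before the start of Psmb5. In Psmc6 and Psmd12 it was on the opposite strand, so the capitals show its reverse complement, and it lay 227 and 247 bases before the start. Psmb6, the fourth such member with a match, is not shown, since its match lay before the start used here but inside the annotated gene, which begins further upstream. A match is a run of letters and not evidence that a factor binds there.

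The other genes that serve the proteasome were mixed. Of 10 regulators of proteasome genes measured, 3 were higher in BAT (30%) and 2 lower (20%), against 21% and 17.5% of all genes. Among the 14-array values 5 were higher (50%) and 2 lower (20%), against 28.7% and 20.5%, and Nfe2l1 and Nfyc were those that joined. Nfe2l1, the factor known to raise proteasome genes, read -0.33, 0.14, -1.30 and -0.084 in sWAT and -0.45, 0.31, 0.74 and 0.65 in BAT. The tissues overlapped through BAT replicate 1, and the difference of 0.70 ± 0.33 had an adjusted p of 0.13 by limma. In the 14-array values BAT replicate 1 read 0.96, and the difference was 0.75 ± 0.18 (adjusted p = 0.013).

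Nfe2l2, the related factor of the antioxidant response, read -0.33, -0.39, -0.13 and -0.73 in sWAT and 1.93, 1.91, 1.87 and 0.055 in BAT. The tissues did not overlap, but BAT replicate 4 stood far below the other BAT replicates and close to sWAT. The difference was 1.84 ± 0.26, or 3.58-fold (adjusted p = 0.0017 by limma), and 1.91 ± 0.26 (adjusted p = 0.0012) in the 14-array values. This is the mean of a pair of very unlike probe sets. The first, 1457117_at, differed by 3.01 ± 0.41 (adjusted p = 0.0016 over all probe sets), without overlap. The second, 1416543_at, differed by 0.66 ± 0.19 (adjusted p = 0.038), and there BAT replicate 4 read -0.087, among the sWAT replicates. Maff, a small partner of these factors, also had its lowest BAT value in replicate 4. It read -0.57, -0.083, -0.35 and -0.29 in sWAT and 1.02, 1.18, 0.77 and 0.10 in BAT, and was 2.13-fold higher (adjusted p = 0.0052), or 2.18-fold (adjusted p = 0.0029) in the 14-array values. Since BAT replicates 1 to 3 are those whose sex-linked genes went against the labels, tissue and sex cannot be told apart in the high values of both genes. BAT replicate 4 also had the lowest brown adipocyte mean and the highest muscle mean of the BAT replicates. The part of these cell types in both genes was not tested.

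Of 5 other proteasome components measured, Usp14, a ubiquitin-removing enzyme bound to the cap, was higher in BAT by 0.44 ± 0.11 (adjusted p = 0.021 by limma, and 0.015 in the 14-array values), and the other 4 did not pass the test. Pomp, the chaperone that completes the barrel, read 0.029, 0.14, -0.57 and 0.065 in sWAT and -0.65, -0.46, -0.10 and -0.065 in BAT. The tissues overlapped through sWAT replicate 3, with a difference of -0.24 ± 0.20. Of 9 genes for Vcp, the ATPase that pulls ubiquitin-tagged proteins out of complexes, and its cofactors, 2 were higher (22.2%, against 21% of all genes), namely Ufd1 by 0.89 ± 0.17 and Ubqln4 by 0.73 ± 0.12, and the other 7 did not pass the test. Both were higher in the 14-array values too, and there Vcp itself fell by 0.79 ± 0.27 (adjusted p = 0.047 by limma), so that 11.1% of the list was lower, against 20.5% of all genes. The tissues overlapped for Vcp in these values. Its probe set 1423030_at differed by -0.50 ± 0.14 (adjusted p = 0.023 by limma over all probe sets) and 1457588_at by -1.08 ± 0.59 (adjusted p = 0.17). The ubiquitin-activating enzyme Uba6, the 1 gene measured of the list for ubiquitin and its activation, fell by 0.66 ± 0.14 (adjusted p = 0.011, and 0.014 in the 14-array values).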

How the data were processed

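Arrays were those labelled sWAT or BAT in the sample titles. Per the methods, the authors used RMA in GeneSpring, made the arrays' distributions equal by quantiles and set each probe set's baseline to its median, so the deposited numbers are log2 values around 0. The median was 0 for every probe set. The number of arrays limits the precision. Platform annotation gave 34958 probe sets 1 symbol, 932 several and 9211 none. Each replicate was the mean of its 2 arrays, and genes were means of their single-symbol probe sets. Genes and probe sets were tested with limma 3.58.1 (R 4.3.3), blocking on the replicate number because the methods name a paired test, and with Benjamini-Hochberg adjustment over all 18194 genes or 45101 probe sets at 0.05. The fit was tested on simulated data. The labels mark the numbers as biological replicates and the methods describe 4 mice, but neither ties a number to a mouse, so p-values measure the spread between these samples. Arrays with a 5′ minus 3′ difference under -2 were left out of the 14-array values. The members and lists were chosen with earlier results of these data known. Members given in every replicate by rule were Psmb5, Psmb6, Psmb7, the largest and smallest difference of each subcomplex, members lower in BAT, and members with probe sets past the test in both directions with all arrays. Nfe2l1, Pomp, the immunoproteasome genes and genes of the other lists past the test at 2-fold were named too. Of these Psmb8, Nfe2l1, Nfe2l2, Maff and Pomp are also given in every replicate. Psmb2, Psmc1, Psmd12 and the other genes named with values were added after their values were seen. Alternatives were the first or second arrays alone, array shifts, left-out arrays and replicates, no block, 2 settings added after seeing the data, the methods' t-test, the median over probe sets, and filters on probe set type and variance. Promoter windows were read with Python 3.11.15. Differences given in the study's supplementary tables were not used. Genes of the lists with no single-symbol probe set are not reported here.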

Additional observations from a re-analysis of the deposited data

Results flagged for a closer look

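In 10 of the 94 sets of 4 replicates looked at, 1 value lay far from the other 3 by Dixon's criterion, which chance alone passes in about 1 of 20 sets. All 10 were low values of sWAT replicate 3, the replicate that holds an array of low 5′ signal, and none was in BAT. They were -0.58 for Psma4, -1.14 for Psma7, -0.92 for Psmb5, -0.21 for Psmc2, -0.83 for Psmc3, -1.05 for Psmd3, -0.65 for Psmd7, -1.54 for Psmd8, -0.60 for Psmd13 and -0.47 for Psmg1. The part of the low 5′ signal in these values was not tested beyond leaving that array out. Without it, sWAT replicate 3 read -0.23 for Psmb5, -0.34 for Psmd8 and -0.095 for Psmg1.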

How the results depend on the processing

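With all arrays, 10 members were higher and 1 lower in BAT. The number higher was 3 from the second arrays alone (6.82%, against 19.3% of all genes), 4 with each array shifted to a median of 0 (9.09%, against 17.8%), 0 with each array shifted to Gapdh and Actb (against 4.51%, and 3 at an unadjusted p under 0.05 by limma), and 3 by the methods' t-test with adjustment (6.82%, against 10.1%, and 9 without). The number lower was 0 from the first arrays alone (15.8% of all genes), 2 from the second (4.55%, against 16.3%), and 0 with the Gapdh and Actb shift, by the methods' t-test and over features of higher variance, which kept 19 of the members (2.48%, 9.55% and 33.3% of all genes in the same order). Members called either way, 11 with all arrays, were 13 from the first arrays and 5 from the second. They were 5 with the median shift, 0 with the Gapdh and Actb shift, 3 by the methods' t-test and 7 over features of higher variance. The Gapdh and Actb shift moved the median of all genes by 0.32 and that of the members to 0.49, while Gapdh itself differed by 1.27 and Actb by -1.28. Member probe sets, 11 higher and 6 lower, were 33 higher in the 14-array values, 3 lower from the first arrays and 3 from the second, 0 and 0 with the Gapdh and Actb shift, and 2 and 0 by the methods' t-test. With 1 replicate number left out, members higher ranged from 3 to 6 (12.9% to 20.3% of all genes). Members lower ranged from 0 to 0 (12.6% to 16.9%), and either way from 3 to 6. Probe sets ranged from 5 to 11 higher (8.95% to 14.3% of all probe sets) and from 2 to 5 lower (12.7% to 16.8%). The median difference of the members then ranged from 0.11 to 0.23.

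Without the replicate block the gene calls did not change, with 10 higher and 1 lower (22.7% and 2.27%, against 28% and 19.1% of all genes). Then 19 probe sets were higher and 8 lower, against 21.7% and 19.2% of all probe sets. Deviations of same-numbered samples from their tissue means correlated at -0.23, 0.064, -0.35 and 0.23, and number 4 alone correlated best with its own number, which none did in the 14-array values. The numbers were therefore not shown to pair the tissues, and the block stands in the fit because the methods name a paired test. The exact sign-flip test over numbered pairs left the shifts of 1.37, 1.09 and 1.85 at p = 0.125. With a replicate number left out they ranged from 1.18 to 1.56, 0.95 to 1.17 and 1.59 to 2.16, each at an exact permutation p of 0.1, the smallest that 3 against 3 allow. In alternatives chosen after seeing the data, no block with 14 arrays gave 18 members called. Of these 15 were higher (34.1%, against 34.3% of all genes) and 3 lower (6.82%, against 21.7%), namely Psme1, Psmg3 and Psmd10. That fit gave 33 probe sets higher (27.2% of all probe sets). BAT replicate 4 alone gave a median difference of 0.087 over the members, against 0.16 over all genes. No difference of a called member turned its sign in any alternative.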
